A study of Mus musculus with 8 samples.

Results

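The kinesin genes were taken as every row of the deposited gene table whose symbol starts with Kif and then a digit or the letter c, or is Klc and a digit, and they came to 47 of 17121 rows. Of these, 44 are annotated as protein coding, 2 are processed pseudogenes (Kif4-ps and Kifc5c-ps) and 1 is an antisense transcript (Kif16bos). All 47 passed the filter on low values. By the known roles of their proteins, 15 rows were grouped as mitotic and meiotic kinesins, 21 as transport kinesins with the kinesin light chains, and 8 as kinesins of cilia and signalling. The RNA came from testis of mice (Mus musculus), and the RNA-seq libraries were 4 with the genotype label N6amt1-SKO (below, SKO) and 4 with the label CTL. N6amt1 encodes a methyltransferase, and the study asks how it acts in the making of sperm.

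The labels leave SKO unexplained and give no strain, age, driver of deletion or targeted exon, nor what the CTL mice carry. Nothing in them ties a library to an animal of its own. The p-values thus rest on how the libraries vary, and that variation may be technical. N6amt1 had normalised values of 586, 557, 561 and 625 in SKO 1 to 4, against 475, 433, 629 and 514 in CTL 1 to 4. It was not called different (log2 difference 0.19, limma adjusted p = 0.437), and a value over the whole gene does not check a deleted exon. The protocol for RNA extraction mentions heart ventricles, whereas each tissue label reads testis. The germ cell gene Piwil1 had normalised values of 29479, 39458, 39258 and 31253 in SKO 1 to 4, against 55513, 52677, 62532 and 61156 in CTL 1 to 4. It fell (log2 difference -0.74, limma adjusted p = 0.015), while another germ cell gene, Dmc1, rose (0.81, limma adjusted p = 0.0191). Of 8 heart muscle markers, 3 (Actc1, Myl2 and Nppa) had no row, and the other 5 had higher means in SKO libraries. Tnni3 (log2 difference 1.54, limma adjusted p = 0.0123) and Tnnt2 (1.01, limma adjusted p = 0.0153) rose, and the sum over the 5 was 4184 to 6521 in SKO libraries and 2086 to 2745 in CTL libraries. The part of heart tissue in the kinesin differences was not tested.

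Library totals lay between 94.2 and 103.1 M (mega) in the scaled unit of the table, and 40.6 to 70.1 M reads could be recovered for the 6 libraries in which this was possible. 18S ribosomal RNA took 0.72% to 0.97% of the values in SKO 4, CTL 3 and CTL 4, here called the libraries with more 18S. It took 0.17% to 0.27% in SKO 1 to 3 and CTL 1 and CTL 2, the libraries with less 18S. Mitochondrial genes took 2.11% to 4.53% in SKO libraries and 1.13% to 1.99% in CTL libraries. Of 20 Sertoli cell markers, 17 rose in SKO libraries, and their summed normalised value was 258946 to 479989 in SKO libraries, against 125186 to 245183 in CTL libraries. Of 16 spermatocyte markers, 5 fell and 1 rose, with sums of 566026 to 635267 in SKO libraries and 750413 to 894689 in CTL libraries. None of 17 spermatid markers passed the limma test (2 were lower and 0 higher at an unadjusted p below 0.05). Their sums were 802211, 345592, 333300 and 304690 in SKO 1 to 4, against 864057, 1037679, 511948 and 252563 in CTL 1 to 4. Every Sertoli, spermatocyte and spermatid marker was above 0 in every library. Bulk tissue cannot separate fewer cells of a type from less RNA per cell.

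Kinesins are motor proteins that use ATP to walk along microtubules or to take them apart at their ends. In dividing cells they build the spindle, move chromosomes and organise the midzone at which the cell is cut. In other cells they carry vesicles, organelles and ciliary cargo, and the kinesin-2 motors drive transport into the growing axoneme. The testis uses all of these, since spermatocytes pass through meiotic divisions and spermatids then build a flagellum and a microtubule skirt around the nucleus, the manchette.

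The letters of the members' promoters are shown first, because many mitotic members share a cell cycle element. RefSeq promoters of GRCm38.p6, which run from 250 bases before to 50 bases after a gene's start, held 40 entries for 36 of the 47 rows. The element searched was TTTGAA on either strand, known as the cell cycle genes homology region, at which complexes repress genes outside the division phases. It occurred in 11 of 15 entries of mitotic and meiotic members (73.3%), against 17.9% of 32851 mouse promoters. The count over all members, 14 of 40 entries (35.0%), includes those 11. Outside the mitotic class only Kif1a, Kif26b and Kif27 held the element. In 9 of the 11 mitotic entries it lay within 50 bases of the start. The 9 were picked by this placement, with the match nearest the start taken in each gene. Placement in other promoters was not examined. In Kif14 and Kif2c the element lay at -228 and -103 from the start of the entry's transcript. The entries of Kif14, Kif2c, Kif4 and Kif27 lie inside the annotated genes, and they are included in the counts above. The windows of the 9 are printed below in the gene's own direction, 26 bases each, with the element in capitals.
Kif18b (chr11:102925106-102925131, minus strand): gaccggctagTTTGAAcgcgccgcgc
Kif20b (chr19:34922355-34922380, plus strand): gccgccattgTTTGAAtttgaaaacc
Kif23 (chr9:61946782-61946807, minus strand): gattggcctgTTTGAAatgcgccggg
Kif4 (chrX:100626074-100626099, plus strand): ctgggatcaaTTTGAAacttggcggt
Kif11 (chr19:37376353-37376378, plus strand): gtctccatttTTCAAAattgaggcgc
Kif15 (chr9:122951052-122951077, plus strand): gggcgccaaaTTCAAAtctgcggcca
Kif22 (chr7:127042422-127042447, minus strand): gccccggtaaTTCAAAagagagaagc
Kifc1 (chr17:33890617-33890642, minus strand): gaggttgaaaTTCAAAagtggcgggt
Kifc5b (chr17:26917110-26917135, plus strand): gaggttgaaaTTCAAAagtgactggt

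Kif18b, Kif20b, Kif23 and Kif4 read TTTGAA along the gene, and the other 5 carry it on the opposite strand, where it reads TTCAAA. In Kif20b another copy follows directly, in lower case. The windows of Kifc1 and Kifc5b are near copies of each other, as are the genes. None of these 9 genes was called different, as described further on. Kif20a, the mitotic member that was called, had no promoter entry and could not be among them. Of the called rows with an entry, Kif27 held the element. The CCAAT box, which often stands upstream of the element in cell cycle promoters, was in 9 of 15 mitotic entries (60.0%) and 20 of 40 of all members, against 37.4% of all promoters. MYB sites (CAGTTG, searched because a MYB factor acts in meiosis) were in 3 of 40 entries (7.5%), against 13.7% of all promoters. cAMP response elements (TGACGTCA, a motif of spermatid genes) were in 4 of 40, against 1.79%. All motifs were searched on both strands. A match describes letters in the window and is not evidence of a bound factor.

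Of the 8 rows that were called lower in SKO libraries, 4 had a promoter entry. GTTGCC, the core of the X-box motif bound by RFX factors of ciliated cells, was found in 12 of 40 entries of all members (30.0%), against 12.5% of all promoters. Kif9 and Kif16b held it among the called rows. Among the others it was in Kif17, Kif1a, Kif3a, Kif3c and Klc3 of the transport class, Kif18a, Kif23 and Kif2a of the mitotic class, and Kif24. Kif3b held a CCAAT box and no GTTGCC. Promoters of these 3 called genes are printed with those letters in capitals. The Kif27 entry starts inside the annotated gene and is not shown.
Kif9 (chr9:110476708-110477007, plus strand): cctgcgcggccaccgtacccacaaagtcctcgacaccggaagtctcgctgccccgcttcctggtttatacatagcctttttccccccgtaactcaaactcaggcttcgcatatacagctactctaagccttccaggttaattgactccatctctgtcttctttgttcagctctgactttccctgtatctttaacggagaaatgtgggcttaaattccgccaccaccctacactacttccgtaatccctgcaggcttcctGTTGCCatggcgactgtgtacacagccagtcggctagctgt
Kif16b (chr2:142901415-142901714, minus strand): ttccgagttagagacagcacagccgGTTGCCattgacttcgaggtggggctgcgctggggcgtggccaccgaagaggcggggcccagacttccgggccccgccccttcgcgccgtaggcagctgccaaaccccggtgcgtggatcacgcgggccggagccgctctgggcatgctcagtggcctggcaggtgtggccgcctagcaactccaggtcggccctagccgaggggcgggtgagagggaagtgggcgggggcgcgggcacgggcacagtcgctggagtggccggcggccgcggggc
Kif3b (chr2:153291166-153291465, plus strand): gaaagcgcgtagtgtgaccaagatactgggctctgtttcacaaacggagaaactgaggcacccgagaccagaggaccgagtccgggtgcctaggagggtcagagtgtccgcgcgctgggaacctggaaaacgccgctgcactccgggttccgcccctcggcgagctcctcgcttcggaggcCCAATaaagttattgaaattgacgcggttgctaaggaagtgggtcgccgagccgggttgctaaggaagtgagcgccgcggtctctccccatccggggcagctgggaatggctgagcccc

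The comparison of SKO with CTL libraries asks which kinesin transcripts differ with the genotype label. 8 of 47 rows fell and none rose at a limma adjusted p below 0.05, while 7.93% of all 17066 genes tested fell and 11.9% rose. At an unadjusted limma p below 0.05 there were 16 lower and 2 higher rows, against 15.3% lower and 21.7% higher of all genes. The share of fallen rows was above the background share of fallen genes, and no risen row was seen where that background is larger. All 4 SKO libraries lay below all 4 CTL libraries in 7 rows (10.6% of all genes) and above them in 2 rows (15.6% of all genes). The median log2 difference over the 47 rows was -0.34, against 0.04 over all genes. Log2 differences here are SKO minus CTL, on the log2(normalised value + 5) scale.

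**Figure D1:**
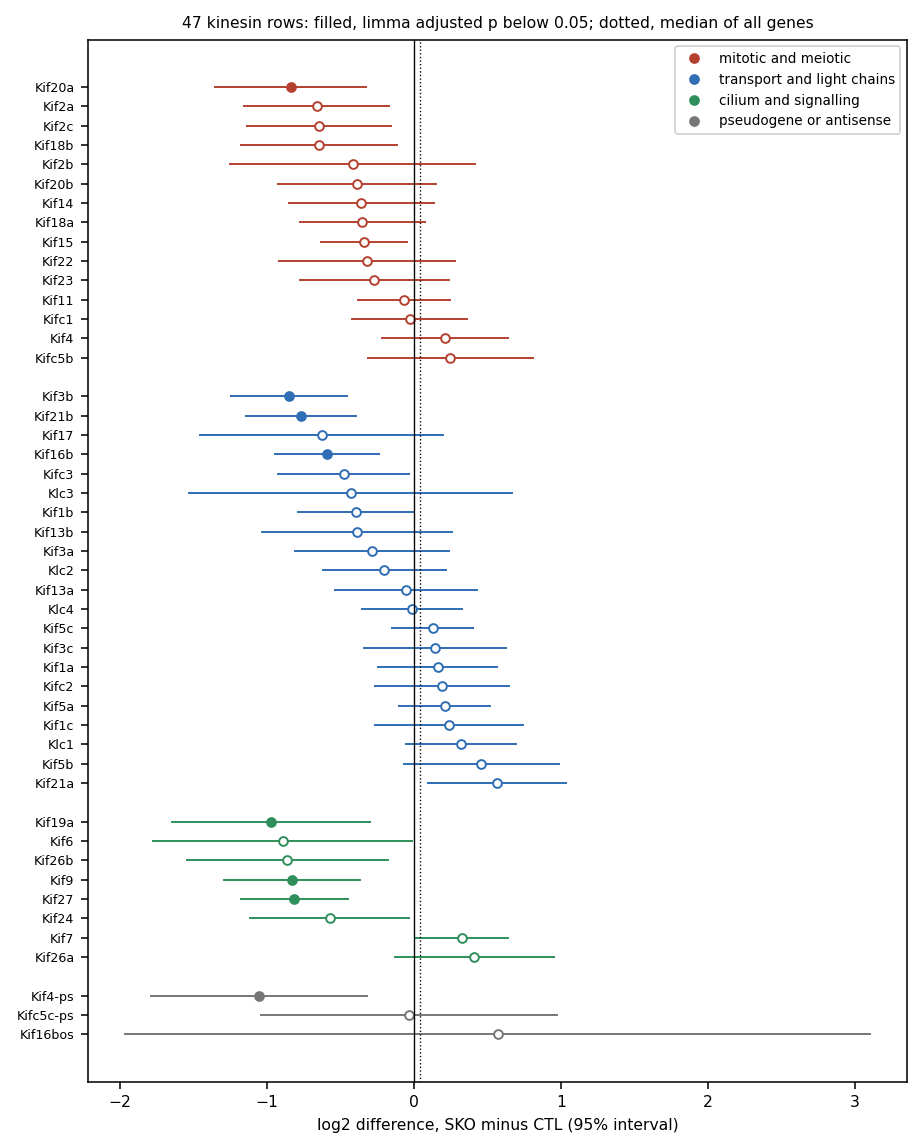
Log2 difference (SKO minus CTL, horizontal axis) of each of the 47 kinesin rows with its 95% interval, ordered within 4 classes. Filled points are the 8 rows with a limma adjusted p below 0.05, all to the left of 0, and the dotted line is the median of all genes, 0.04.

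Among the 8 kinesins of cilia and signalling, 3 fell (Kif27, Kif9 and Kif19a), 5 did not pass, and the median log2 difference was -0.82. Over all genes tested, 7.93% fell and 11.9% rose, and the median was 0.04. In the class, 6 of the 8 had a negative difference. The class was the most shifted of the 3 protein-coding classes by its median, and the difference between the classes was not tested. With the libraries of less 18S alone the class median was -0.44, and with values scaled by library totals it was -0.53, where the median of all genes was 0.33.

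Kif27, which in mouse is needed for motile cilia and their central microtubule pair, had normalised values of 22454, 18950, 16845 and 22991 in SKO 1 to 4, against 30849, 37335, 43272 and 31452 in CTL 1 to 4. Every SKO library was below every CTL library. The log2 difference was -0.81 with a standard error of 0.16 (limma adjusted p = 0.0153). Gm26555, an opposite-strand transcript with no row in the table, covers 6.37% of the exon bases of Kif27.

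Kif9, a motor of the sperm tail whose loss impairs mouse sperm motility, had values of 29158, 28139, 26795 and 41344 in SKO 1 to 4 and 43657, 46055, 69066 and 65644 in CTL 1 to 4. Its groups did not overlap, although SKO 4 came close to CTL 1. Its mean was 31359 ± 6726 in SKO libraries and 56106 ± 13101 in CTL libraries (SD, n = 4 each), a log2 difference of -0.83 with a standard error of 0.21 (limma adjusted p = 0.0248).

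Kif19a, which trims microtubules at the tips of motile cilia and so limits their length, had values of 1779, 1449, 2172 and 3494 in SKO 1 to 4 and 3499, 2884, 5788 and 4982 in CTL 1 to 4. SKO 4 exceeded CTL 2, so the groups overlapped. Its log2 difference was -0.97 with a standard error of 0.30 (limma adjusted p = 0.0483), close to the threshold.

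Kif6, a kinesin of motile cilia in the mouse brain, had 1492, 1521, 1800 and 2815 in SKO 1 to 4 and 2071, 2015, 5796 and 5668 in CTL 1 to 4. CTL 3 and CTL 4 stood far above the other 6 libraries, and the test was not passed (log2 difference -0.89, limma adjusted p = 0.13). Kif24, known in human cells as a motor that removes microtubules at the base of cilia, had 3527, 4850, 4571 and 4715 in SKO 1 to 4 and 4928, 4736, 8155 and 9498 in CTL 1 to 4, with CTL 3 and CTL 4 again highest. Its log2 difference was -0.57 (limma adjusted p = 0.116).

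The signalling members were low per kilobase of exon. Kif26b, an atypical kinesin of kidney development, had the lowest level of all 47 rows, and values of 150, 215, 102 and 122 in SKO 1 to 4 against 194, 243, 396 and 249 in CTL 1 to 4 (log2 difference -0.86, limma adjusted p = 0.0722). Kif26a, which restrains Ret signalling in gut neurons, and Kif7, which acts in Hedgehog signalling at the tip of primary cilia, had positive differences. Kif7 had 815, 853, 778 and 847 in SKO 1 to 4 and 681, 626, 711 and 606 in CTL 1 to 4, so every SKO library lay above every CTL library. The difference of 0.33 did not pass the test (limma adjusted p = 0.119), and 19.1% of the exon bases of Kif7 overlap an opposite-strand transcript. Kif26a differed by 0.41 (limma adjusted p = 0.245).

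**Figure D2:**
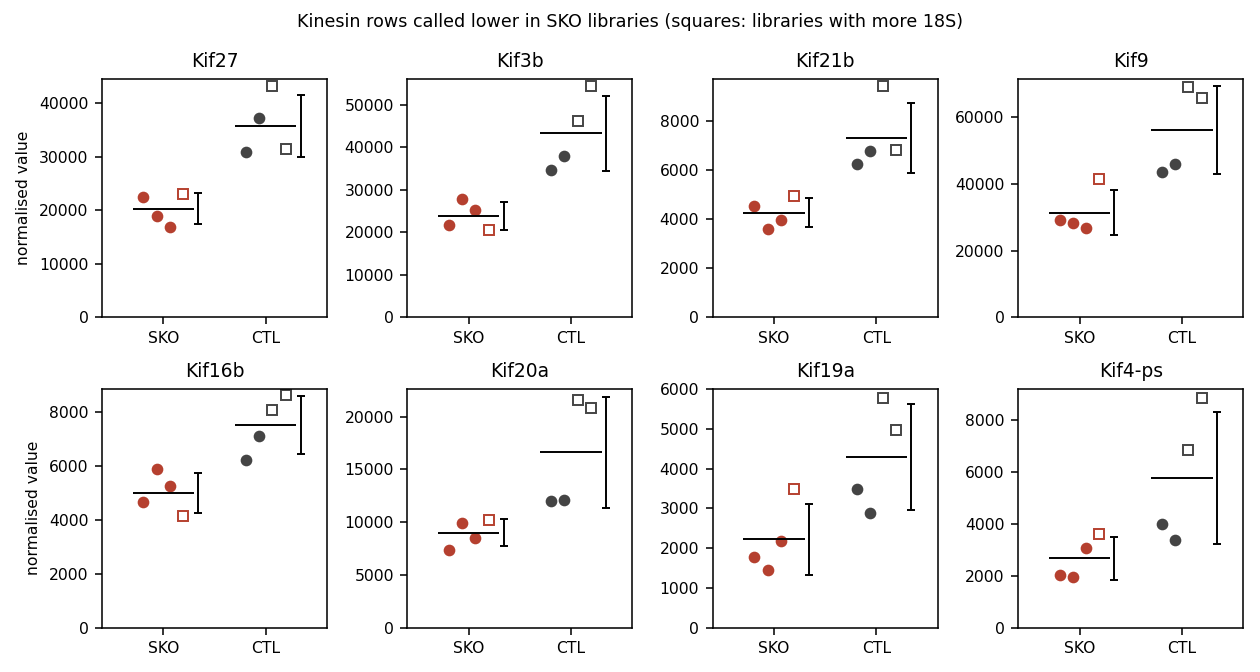
Normalised values (vertical axis, one panel per row, from 0) of the 8 kinesin rows called lower, with SKO libraries left of CTL libraries. Points are libraries, squares are those with more 18S, the line is the mean and the bar is the SD (n = 4 each). The groups do not overlap in Kif27, Kif3b, Kif21b, Kif9, Kif16b and Kif20a, and overlap in Kif19a and Kif4-ps.

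Of the 21 transport kinesins and light chains, 3 fell (Kif3b, Kif21b and Kif16b), 18 did not pass and none rose. Over all genes tested, 7.93% fell and 11.9% rose. The median log2 difference of the class was -0.05, against 0.04 over all genes, with 9 positive and 12 negative members. The class thus held both some of the most lowered members and all of the conventional kinesin heavy chains, which had positive differences. With values scaled by library totals the median became 0.24, where that of all genes was 0.33.

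Kif3b, a motor subunit of the heterotrimeric kinesin-2 that carries cargo into cilia and the sperm tail, had values of 21666, 27808, 25298 and 20626 in SKO 1 to 4, against 34674, 38048, 46174 and 54449 in CTL 1 to 4. All SKO libraries were lower than all CTL libraries. Its mean was 23849 ± 3313 in SKO libraries and 43336 ± 8842 in CTL libraries (SD, n = 4 each), and the log2 difference of -0.85 had a standard error of 0.18 (limma adjusted p = 0.016).

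The other subunits of that motor did not pass the test. Kif3a, the partner motor subunit, had 9208, 8894, 10176 and 17894 in SKO 1 to 4 and 11518, 11735, 15670 and 15453 in CTL 1 to 4 (log2 difference -0.28, limma adjusted p = 0.411). SKO 4 was the highest library for Kif3a and the lowest for Kif3b. Kifap3, the subunit that holds cargo, had 20551, 17914, 14123 and 15216 in SKO 1 to 4 and 24934, 33007, 23647 and 20420 in CTL 1 to 4, and it missed the threshold narrowly (log2 difference -0.58, limma adjusted p = 0.0506). Kif3c, an alternative partner of Kif3a, had low values and a log2 difference of 0.14 (limma adjusted p = 0.67), and 1110002L01Rik covers 35.3% of the exon bases of Kif3c.

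Kif17, the homodimeric kinesin-2, shuttles a coactivator of spermatid transcription in mouse. Its values were 26309, 20283, 14366 and 13887 in SKO 1 to 4 and 32503, 44865, 32514 and 12737 in CTL 1 to 4. CTL 4 was lower than every SKO library, while CTL 1, CTL 2 and CTL 3 were higher than every SKO library. The log2 difference of -0.63 therefore came with a wide 95% interval, from -1.45 to 0.20 (limma adjusted p = 0.247). Without CTL 4 it was -1.03 and Kif17 was called.

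Kif21b, a kinesin-4 that moves along and slows the growth of microtubules in neurons and immune cells, had 4550, 3631, 3994 and 4962 in SKO 1 to 4, against 6268, 6797, 9449 and 6853 in CTL 1 to 4. Its groups did not overlap (log2 difference -0.77, standard error 0.17, limma adjusted p = 0.0176). Its paralogue Kif21a went the other way in value, with 6177, 8185, 8961 and 6318 in SKO 1 to 4 and 4529, 4182, 4345 and 7261 in CTL 1 to 4. CTL 4 was within the range of SKO libraries for Kif21a, the other 3 CTL libraries were below all SKO libraries, and the difference of 0.56 did not pass (limma adjusted p = 0.0817).

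Kif16b, a kinesin-3 that carries early endosomes, had 4649, 5908, 5265 and 4165 in SKO 1 to 4, against 6225, 7115, 8093 and 8644 in CTL 1 to 4. The groups did not overlap, and SKO 2 and CTL 1 lay close together (log2 difference -0.59, standard error 0.16, limma adjusted p = 0.0319). The other kinesin-3 members ranged from -0.39 for Kif1b, a carrier of mitochondria and synaptic vesicle precursors, to 0.24 for Kif1c, and none passed. Kif1a, Kif13a and Kif13b lay between these, at 0.16, -0.05 and -0.39.

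The conventional kinesin heavy chains Kif5a, Kif5b and Kif5c, which carry organelles with the light chains, had log2 differences of 0.21, 0.46 and 0.13. None passed (limma adjusted p = 0.302, 0.187 and 0.49). Kif5b, the ubiquitous member, had 8904, 14688, 14151 and 10048 in SKO 1 to 4 and 7192, 6868, 8294 and 12661 in CTL 1 to 4, with CTL 4 inside the SKO range. Kif5a, a neuronal member, had all SKO libraries above all CTL libraries, at 731, 753, 798 and 799 in SKO 1 to 4 against 621, 647, 668 and 728 in CTL 1 to 4.

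Among the light chains, Klc1 had a difference of 0.32 and Klc4 of -0.01. Klc2, the most abundant light chain per kilobase, had 17939, 15525, 19587 and 21393 in SKO 1 to 4 and 18762, 16778, 28399 and 22696 in CTL 1 to 4 (log2 difference -0.20, limma adjusted p = 0.471). Klc3, a light chain of spermatids that binds outer dense fibres, had 1200, 383, 613 and 912 in SKO 1 to 4 and 1271, 1384, 1399 and 347 in CTL 1 to 4. CTL 4 and SKO 2 were far below the other libraries (log2 difference -0.43, limma adjusted p = 0.565), and 28.1% of the exon bases of Klc3 overlap Ercc2.

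The minus-end directed transport kinesins did not pass either. Kifc3, which acts at cell junctions and the Golgi, had 5810, 3256, 5173 and 5585 in SKO 1 to 4 and 6532, 7993, 6845 and 5758 in CTL 1 to 4 (log2 difference -0.48, limma adjusted p = 0.115). Kifc2 differed by 0.19 (limma adjusted p = 0.525).

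Of the 15 mitotic and meiotic kinesins, 1 fell (Kif20a), 14 did not pass and none rose, with a median log2 difference of -0.35. Over all genes tested, 7.93% fell and 11.9% rose, and the median was 0.04. At an unadjusted limma p below 0.05, 5 class members were lower and 0 higher, where 15.3% of all genes were lower and 21.7% higher. 13 of the 15 had negative differences, of which Kif11, Kif23 and Kifc1 turned positive with library totals, under which the class median was -0.059. The exceptions were Kif4, a chromosome-bound kinesin, at 0.21 and Kifc5b, a close relative of Kifc1, at 0.25.

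Kif20a, which organises the central spindle and brings Aurora B kinase there for cytokinesis, had 7388, 9940, 8541 and 10198 in SKO 1 to 4, against 12005, 12076, 21583 and 20807 in CTL 1 to 4. The groups did not overlap, and CTL 3 and CTL 4 lay well above CTL 1 and CTL 2. Its mean was 9017 ± 1307 in SKO libraries and 16618 ± 5295 in CTL libraries (SD, n = 4 each), a log2 difference of -0.84 with a standard error of 0.23 (limma adjusted p = 0.0336). Cdc23, which overlaps 29.3% of its exon bases on the other strand, differed by 0.27 (limma adjusted p = 0.215).

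The kinesin-13 family, which takes microtubules apart at their ends, included the most abundant rows of the class per kilobase. Kif2a had 23860, 24895, 25275 and 39315 in SKO 1 to 4 and 35600, 35465, 54898 and 53260 in CTL 1 to 4. SKO 4 lay above CTL 1 and CTL 2, and the other SKO libraries lay below all CTL libraries (log2 difference -0.66, limma adjusted p = 0.0603). In Kif2a, 19.2% of the exon bases overlap Dimt1, which had a difference of -0.17. Kif2c, which corrects faulty attachments at centromeres, had 15556, 9495, 9274 and 10879 in SKO 1 to 4 and 19162, 21792, 17213 and 12435 in CTL 1 to 4 (log2 difference -0.65, limma adjusted p = 0.0635). There CTL 4 was the library inside the SKO range.

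Kif2b, the third member, is a gene without introns and had the highest level per kilobase of all rows, at 11895 in SKO libraries and 17149 in CTL libraries. Its values were 38726, 26214, 20888 and 20942 in SKO 1 to 4 and 45390, 62714, 28347 and 17474 in CTL 1 to 4. They spanned a wide range within each group, and no difference was detectable (log2 difference -0.42, 95% interval -1.25 to 0.42, limma adjusted p = 0.452). CTL 2, CTL 1 and SKO 1 were the highest libraries for Kif2b and CTL 4 was the lowest, which is also the order of the summed spermatid markers. Kif17 and Klc3 were likewise lowest in CTL 4, and the part of spermatid content in these values was not tested.

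Kif18b, which controls astral microtubules, had 5496, 5910, 5017 and 8407 in SKO 1 to 4 and 7421, 7638, 14116 and 10261 in CTL 1 to 4 (log2 difference -0.65, limma adjusted p = 0.0806). SKO 4 was above CTL 1 and CTL 2. Kif18a, which aligns chromosomes and is needed for germ cell development in mouse, had 2821, 3076, 3007 and 4123 in SKO 1 to 4 and 3519, 3653, 3899 and 5662 in CTL 1 to 4 (log2 difference -0.35, limma adjusted p = 0.21). Kif15, a helper of spindle pole separation, had no overlap between the groups (4076, 4248, 3935 and 4951 in SKO 1 to 4, against 5059, 4978, 5748 and 5972 in CTL 1 to 4), but the difference of -0.34 did not pass (limma adjusted p = 0.0928).

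Kif11, the main motor of spindle pole separation, was almost level, at 5213, 5935, 5966 and 6082 in SKO 1 to 4 and 5754, 5333, 5924 and 7443 in CTL 1 to 4. Its log2 difference was -0.07, with a 95% interval from -0.38 to 0.24 (limma adjusted p = 0.767). The remaining motors of chromosomes and cytokinesis lay in between and did not pass. These were Kif14 at -0.36, Kif20b at -0.39, Kif22 at -0.32 and Kif23 at -0.27.

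Kifc1, a minus-end motor that focuses spindle poles and also acts in the spermatid manchette and acrosome, had 2067, 1658, 1801 and 2453 in SKO 1 to 4 and 2066, 1755, 2507 and 1803 in CTL 1 to 4 (log2 difference -0.03, limma adjusted p = 0.928). Its reads are uncertain. Of its 50-base words, 38.6% also occur in Kifc5b on the same chromosome, and an alignment of the transcripts had 2278 identical positions in 2375 columns (95.9%). A 90-base stretch of each transcript shows how short reads may be shared, with the bases that differ in capitals.
Kifc5b (GENCODE M21 transcript, bases 1137 to 1226): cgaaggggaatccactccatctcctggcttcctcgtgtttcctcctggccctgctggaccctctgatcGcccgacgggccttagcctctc
Kifc1 (GENCODE M21 transcript, bases 1132 to 1221): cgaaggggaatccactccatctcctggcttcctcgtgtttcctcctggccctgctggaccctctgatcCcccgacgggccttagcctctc

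Kif4-ps, a transcribed pseudogene copy of Kif4 on chromosome 12 (GRCm38, 101145614 to 101149758), was the eighth row that fell. Its values were 2014, 1950, 3071 and 3617 in SKO 1 to 4, against 3982, 3367, 6832 and 8825 in CTL 1 to 4. CTL 3 and CTL 4 were the highest libraries, and SKO 4 overlapped CTL 2. Its log2 difference was -1.05 with a standard error of 0.33 (limma adjusted p = 0.0496), at the edge of the threshold. Its parent Kif4 is X-linked and had 1398, 1714, 1702 and 1756 in SKO 1 to 4 and 1208, 1083, 1813 and 1670 in CTL 1 to 4 (log2 difference 0.21, limma adjusted p = 0.455). Per kilobase of exon, the pseudogene was at 642 in SKO libraries and 1388 in CTL libraries, and Kif4 was at 298 in SKO libraries and 262 in CTL libraries.

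The copy and its parent have diverged enough for reads to be told apart over most of their length. The transcripts shared 2936 of 3692 aligned columns (79.5%), and 0.366% of the 50-base words of Kif4-ps occur in Kif4. The capitals mark the 15 bases that differ in a 90-base stretch.
Kif4-ps (GENCODE M21 transcript, bases 1781 to 1870): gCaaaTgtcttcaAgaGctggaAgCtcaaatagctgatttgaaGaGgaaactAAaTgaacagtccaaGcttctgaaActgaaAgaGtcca
Kif4 (GENCODE M21 transcript, bases 2531 to 2620): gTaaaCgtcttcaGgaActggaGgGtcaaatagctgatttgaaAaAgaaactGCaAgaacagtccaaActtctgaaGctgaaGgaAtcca

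In Kif4, 15.1% of the exon bases overlap Pdzd11, which rose by a log2 difference of 0.67 (limma adjusted p = 0.0487). Kifc5c-ps and Kif16bos had low values. Kifc5c-ps averaged 77 ± 31.6 in SKO libraries and 80 ± 36.3 in CTL libraries (SD, n = 4 each; log2 difference -0.03). Kif16bos, which lies next to Kif16b on the other strand, had 198, 98, 53 and 70 in SKO 1 to 4 and 239, 271, 52 and 0 in CTL 1 to 4. Its mean was lower in SKO libraries while its log2 difference was 0.57, because CTL 4 was listed at 0, and no direction is given (limma adjusted p = 0.756).

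**Figure D3:**
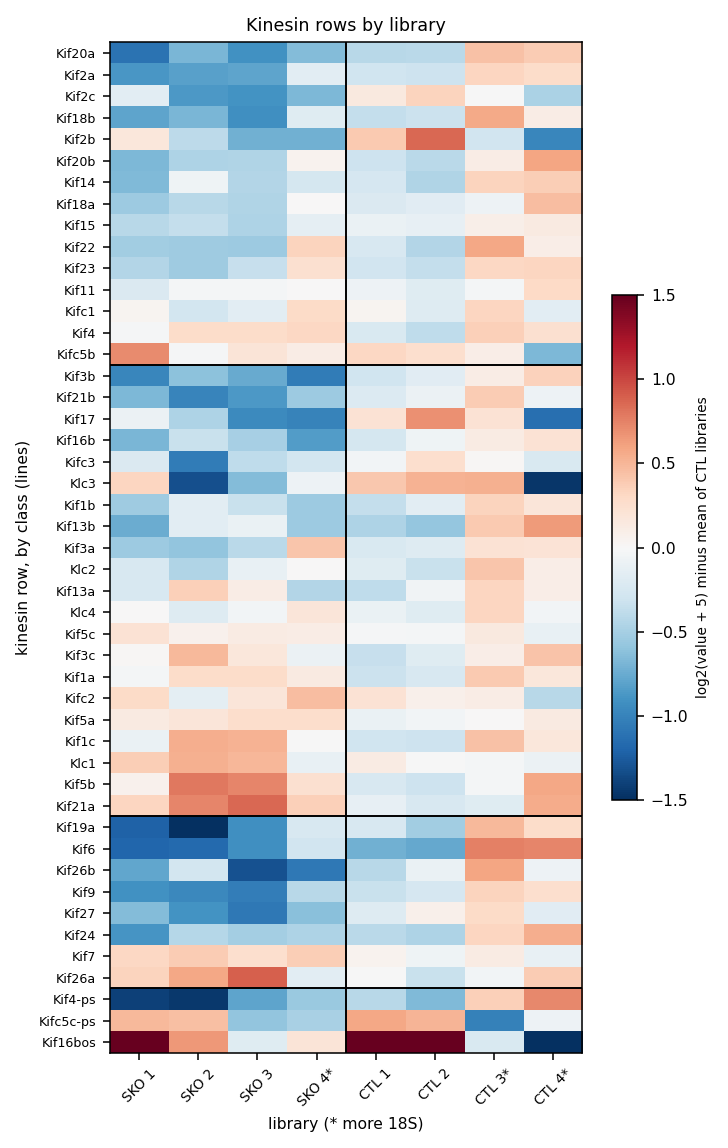
Log2(normalised value + 5) of each kinesin row (down the page, by class) in each library (across, SKO left of CTL), as the difference from the mean of the 4 CTL libraries, with colours ending at -1.5 and 1.5. Asterisks mark libraries with more 18S. SKO 1 to 3 are blue in most mitotic and cilium rows, and CTL 4 stands apart in Kif2b, Kif17 and Klc3.

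Mitotic and meiotic kinesins were set against transport kinesins library by library, as the mean of log2 values over the class relative to the mean of CTL libraries. The mitotic mean was -0.37, -0.39, -0.44 and -0.09 in SKO 1 to 4, against -0.13, -0.15, 0.21 and 0.07 in CTL 1 to 4. The transport mean was -0.16, -0.12, -0.07 and -0.16 in SKO 1 to 4, against -0.14, -0.08, 0.21 and 0.01 in CTL 1 to 4. The mitotic mean minus the transport mean was -0.21, -0.27, -0.38 and 0.07 in SKO 1 to 4, against 0.02, -0.07, 0.00 and 0.06 in CTL 1 to 4. SKO 1 to 3 thus stood below the CTL libraries in this difference, and SKO 4 stood above them. The difference between the classes is a description, since the members were chosen with earlier results known.

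For the cilium and signalling class, the mean was -0.62, -0.54, -0.58 and -0.36 in SKO 1 to 4, against -0.28, -0.30, 0.36 and 0.23 in CTL 1 to 4. All 4 SKO libraries were lowest. Summed normalised values, which weigh the abundant members most, did not overlap in any of the 3 classes. The mitotic sum was 103910 to 136622 in SKO libraries and 157760 to 186724 in CTL libraries, and the transport sum was 138740 to 149124 in SKO libraries and 161749 to 210582 in CTL libraries. The transport sum thus separated the groups where the mean of log2 values, which gives each member equal weight, did not. Kif3b, Kif17 and Klc2 were the most abundant transport members per kilobase, with 4232, 4084 and 4502 in SKO libraries and 7691, 6690 and 5239 in CTL libraries. Within cilium and signalling kinesins, the highest levels per kilobase over both groups were those of Kif9, Kif27 and Kif19a, at 7296, 3895 and 547 in SKO libraries and 13054, 6851 and 1054 in CTL libraries. In SKO libraries alone Kif24 was at 551, beside 547 for Kif19a, and it was at 852 in CTL libraries.

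**Figure D4:**
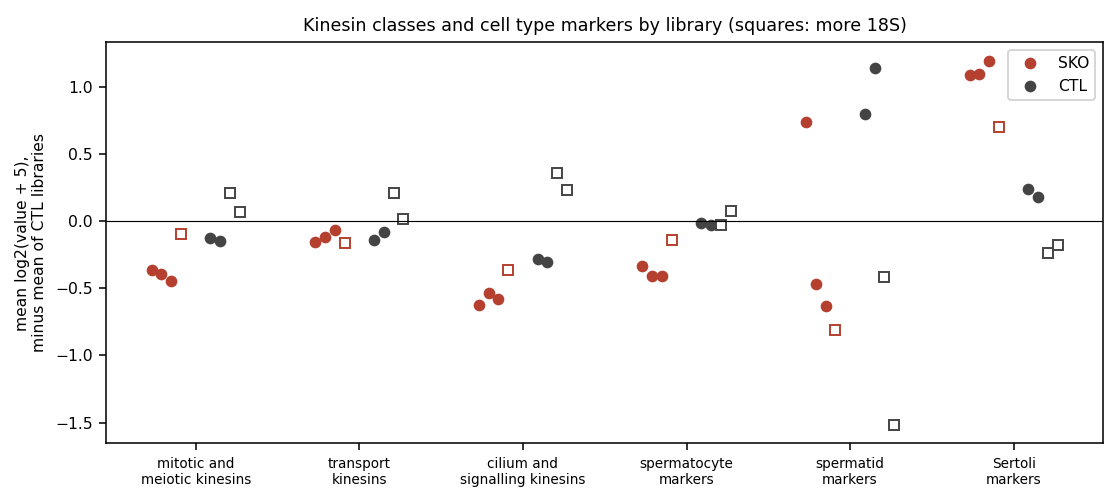
Mean log2(normalised value + 5) of 3 kinesin classes and 3 marker lists in each library (points, squares for more 18S), relative to the mean of the CTL libraries, with SKO left of CTL. SKO libraries lie lowest for cilium kinesins and spermatocyte markers and highest for Sertoli markers, while spermatid markers vary widely within both groups.

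Spermatocyte and Sertoli marker means separated SKO from CTL libraries, as the cilium kinesin mean did. Inside the CTL group, mitotic and cilium kinesin means were higher in CTL 3 and CTL 4 than in CTL 1 and CTL 2. Sertoli and spermatid marker means were lower there, and spermatocyte marker means were nearly level. Spermatocyte markers had means of -0.33, -0.41, -0.41 and -0.14 in SKO 1 to 4, against -0.01, -0.03, -0.03 and 0.07 in CTL 1 to 4. Sertoli markers had 1.08, 1.09, 1.19 and 0.70 in SKO 1 to 4, against 0.24, 0.18, -0.24 and -0.18 in CTL 1 to 4. SKO 4 was the SKO library nearest to the CTL libraries in both lists and in the mitotic and cilium kinesins. In the other lists, 4 of 14 spermatogonial, 4 of 7 peritubular myoid, 2 of 9 Leydig, 1 of 7 endothelial, 0 of 8 macrophage and 2 of 5 heart markers rose and none fell. Of all genes, 11.9% rose and 7.93% fell. At an unadjusted limma p below 0.05, 3 macrophage markers were higher and 0 lower, as were 9 and 0 spermatogonial, 7 and 0 myoid and 4 and 0 heart markers. Leydig markers had 3 higher and 2 lower, and endothelial markers 1 and 1, where 21.7% of all genes were higher and 15.3% lower. The part of cell composition in the kinesin differences was not tested.

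The split by 18S crosses the groups and was examined by fitting each set alone. Among the 5 libraries with less 18S, 11 members fell and 5 rose, against 13.4% and 18.8% of 17003 genes. Those that fell were Kif2a, Kif2b, Kif2c, Kif18b and Kif20a of the spindle, Kif3b, Kif17 and Kif21b of transport, and Kif9, Kif19a and Kif27 of cilia. Those that rose were Kif1a, Kif5b, Kif21a, Klc1 and Kif26a. In these libraries Kif2c differed by -0.88, Kif17 by -0.96, Kif21a by 0.82 and Kif5b by 0.80 (limma adjusted p = 0.0335, 0.036, 0.0194 and 0.0335). Kif16b was not called there (-0.34, limma adjusted p = 0.0885), and neither was Kif4-ps (-0.68, limma adjusted p = 0.0511).

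Among the 3 libraries with more 18S, SKO 4 alone stands for its group, so the differences are given as values. They are no independent check, because these libraries also enter the fit to all 8. Kif3b differed by -1.26, Kif27 by -0.66, Kif9 by -0.69, Kif21b by -0.68 and Kif20a by -1.04 there. Kif5b differed by little (-0.01), and so did Kif2b (-0.07). All 8 called rows were lower in SKO libraries within each set.

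**Figure D5:**
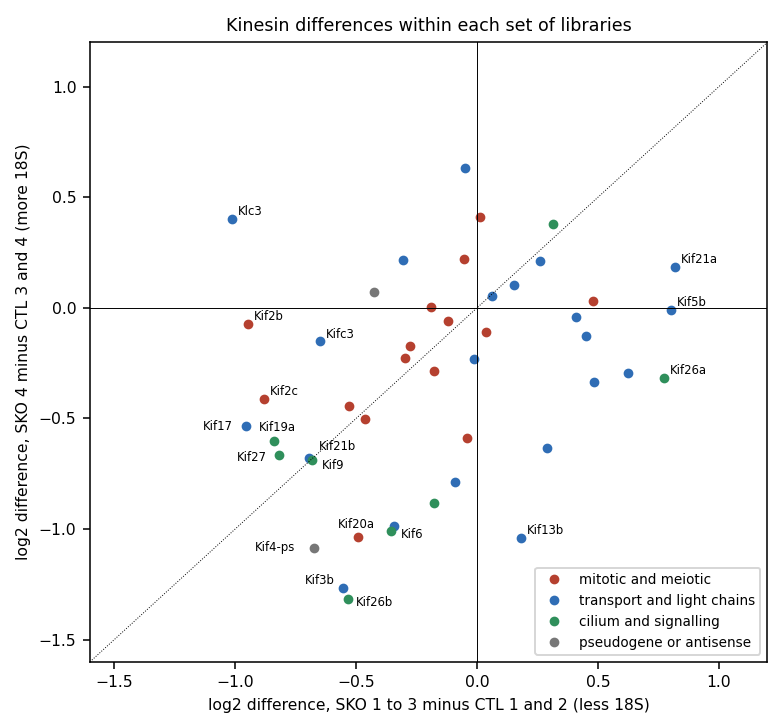
Log2 difference of 46 kinesin rows (Kif16bos was not tested in the smaller set) among libraries with less 18S (horizontal axis, SKO 1 to 3 minus CTL 1 and 2) and with more 18S (vertical axis, SKO 4 minus CTL 3 and 4), with the dotted line marking equal differences. Kif27, Kif9 and Kif21b lie near that line, and Kif5b, Kif21a and Kif2b lie far from 0 on the horizontal axis and near 0 on the vertical one.

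Leaving out single libraries showed how much the calls rest on each. Without SKO 3, no gene of the table was called (4784 genes and 10 members had an unadjusted limma p below 0.05, and the smallest adjusted p was 0.0569), and the members' adjusted p was 0.0579 or higher. Without any other single library, Kif3b and Kif27 were called each time, with log2 differences from -0.997 to -0.76 for Kif3b and from -0.93 to -0.73 for Kif27 over all 8 omissions. Kif21b was lost without SKO 2 as well (highest limma adjusted p = 0.0663). Kif9 was also lost without CTL 3, SKO 1 or SKO 2, and Kif16b without CTL 3, SKO 1 or SKO 4. Kif20a, Kif4-ps and Kif19a were also lost without CTL 3, CTL 4, SKO 1 or SKO 2, and Kif19a without CTL 1 too. Fallen members numbered 3 without CTL 3, 4 without SKO 1, 3 without SKO 2 and 10 without SKO 4. Over all genes, 549 of 17060, 469 of 17041, 504 of 17048 and 1526 of 17049 fell in these fits. Scaling by library totals, which moved the median of all genes to 0.33, left 4 members fallen (Kif27, Kif3b, Kif21b and Kif9) and 7 risen, against 2.67% fallen and 28.6% risen of all genes under that scaling.

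Genes that work with the members were described in the same fit, in which 7.93% of all genes fell and 11.9% rose. Of 17 spindle partners, 3 fell, none rose, and all 17 had negative differences (median -0.42). The fallen ones were Aurka, the spindle pole kinase (-0.75, limma adjusted p = 0.0371), Birc5, a subunit of the chromosomal passenger complex (-0.49, limma adjusted p = 0.0272), and Prc1, the midzone bundler (-0.88, limma adjusted p = 0.0413). Prc1 had 7783, 9646, 11070 and 10359 in SKO 1 to 4, against 13267, 12416, 21777 and 27741 in CTL 1 to 4, and its groups did not overlap. Cenpe, a kinesin of kinetochores whose symbol lies outside the naming rule, differed by -0.73 and did not pass (limma adjusted p = 0.156), with 11029, 12480, 12309 and 22067 in SKO 1 to 4 and 15330, 14930, 35312 and 34656 in CTL 1 to 4. As with Kif20a, its CTL 3 and CTL 4 values stood above the other CTL libraries.

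Of 19 cargo partners, 4 rose, 3 fell and the median was -0.11, where 11.9% of all genes rose and 7.93% fell. The risen ones were Rab3a, a GTPase of secretory vesicles (1.06, limma adjusted p = 0.0216), Arl8a, a lysosomal GTPase (0.83, adjusted p = 0.0366), Fez2 (0.76, adjusted p = 0.0151) and Kank2, of a family that meets Kif21a at adhesions (0.66, adjusted p = 0.0466). The fallen ones were Mapk8ip1 (-0.54, limma adjusted p = 0.0337) and Mapk8ip2 (-0.90, adjusted p = 0.0192), scaffolds that bind light chains, and Plekhm2 (-0.89, adjusted p = 0.0256), which links lysosomes to kinesin-1. Cytoplasmic dynein and dynactin, the motor that runs the other way, had 2 risen and 2 fallen of 27 genes, with a median of -0.13. Neither count exceeded the share of all genes. The risen ones were the light chains Dynlrb1 at 0.90 and Dynlt3 at 0.74. The fallen ones were the dynactin subunits Actr10 at -0.46 and Actr1a at -0.71. The dynein heavy chain Dync1h1 had 86238, 127671, 109674 and 107182 in SKO 1 to 4 and 135938, 137231, 408964 and 401693 in CTL 1 to 4. The split between CTL 1 and 2 and CTL 3 and 4 was wide, and the difference of -1.14 did not pass (limma adjusted p = 0.0642). Kifbp, a protein that binds several kinesin motor domains and is no motor, was level (-0.02, limma adjusted p = 0.951).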

How the data were processed

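Testis RNA of 8 libraries (4 N6amt1-SKO, 4 CTL, grouped by genotype label) was sequenced after TRIzol extraction and a NEBNext Ultra kit that does not mark strand, per the labels' protocols. Per the submitters' processing notes, CASAVA, fastp, HISAT2 2.0.5, featureCounts 1.5.0-p3 and build mm10 were used. The sources used here do not give how overlapping genes or multiply mapped reads were treated. The values are a score, since the authors deposited rounded values. In 6 libraries the spacing of values showed read counts times a scaling factor of the library. There 100% of values up to 1000 lay on whole steps, where 43.1% to 68.0% would by chance. No such step was found for CTL 1 and CTL 2. The lowest row maximum was 95, so the table leaves out rarer genes.

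Count models were not used because of this scaling. A gene was kept if 4 or more libraries had a value of 25 or more (17066 of 17121 genes). Values were divided by TMM scales (trims of 30% and 5%), put on a log2 scale after adding 5, and compared by limma 3.58.1 under R 4.3.3 (moderated variances with a trend, no covariate). Tests were two-sided. P-values were adjusted by Benjamini-Hochberg across every gene tested, and the threshold was 0.05. The log2 scale with the constant understates changes of low genes. The fit was tested on simulated data. Gene models are from GENCODE M21 (GRCm38). Levels per kilobase divide by the exon union. Alignments used BLAST+ 2.17.0. Promoters are from RefSeq GRCm38.p6.

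Members, classes, lists, the filter and the 18S limit of 0.5% were chosen with earlier results of these data known. Genes given in full are all called members, the 3 largest uncalled differences and 3 highest levels per kilobase in each class, and Kif17, Klc3, Kifc1, Kif18a and Kif9. Other members appear by their values, and those shown in full beyond the rule were picked after their values were seen. Kif12 and Kif28, whose symbols fit the naming rule, had no row. No 2 libraries were duplicates (chi-square per gene of at least 47.6). Samples with the same number were not paired.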

Additional observations from a re-analysis of the deposited data

Results flagged for a closer look

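In 6 of 94 groups of 4 libraries, a single library lay apart from the other 3 by more than Dixon's 95% critical share of the group's range, measured on the log2 scale. Chance flags about 1 in 20 such groups. Kif22, a chromosome-arm motor, was highest in SKO 4, at 7260 against 4018 in the nearest SKO library (share of the range 0.972). Kif2a was also highest in SKO 4, at 39315 against 25275 (0.885). SKO 1 was lowest of the SKO libraries for Kif11, at 5213 against 5935 (0.842), and for Kif4, at 1398 against 1702 (0.863). CTL 4 was highest of the CTL libraries for Kif21a, at 7261 against 4529 (0.856), and lowest for Klc3, at 347 against 1271 (0.931). SKO 4 and CTL 4 belong to the libraries with more 18S.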

How the results depend on the processing

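The calls rest on 4 libraries a group, on the scaling and on SKO 3, and bulk values of overlapping genes are uncertain. The count of 8 fallen and 0 risen members was 7 to 12 fallen and 0 risen with constants of 1 or 25, no filter or a filter of 200, median-ratio factors or 18S as a covariate, and 6 fallen with upper quartile factors or without a trend. Over all genes, these fits gave 1112 (without a trend) to 2210 (18S as a covariate) fallen. They gave 1602 (median-ratio factors) to 2801 (18S as a covariate) risen. With library totals 4 fell and 7 rose (2.67% and 28.6% of all genes), and the median moved to -0.059 for mitotic and 0.24 for transport members. In libraries with less 18S 11 fell and 5 rose (13.4% and 18.8% of all genes). The fit to libraries with more 18S holds a single SKO library, so no count is given for it. The cilium median of -0.82 was -0.44 with less 18S, -0.68 with more and -0.53 with library totals. Leaving out each library gave 0 to 10 fallen and 0 to 1 risen, with medians of -0.45 to -0.27 (mitotic) and -0.22 to 0.00 (transport). Over all genes, 0 to 1526 fell and 0 to 2455 rose in those fits. Samples with the same number did not pair (r of deviations 0.67, 0.01, 0.08 and 0.23, and no library matched its own number best), and a replicate block gave 11 fallen and 0 risen. Over all 17066 genes the block gave 1701 fallen and 2162 risen. Kif2a counted with transport members left medians of -0.34 and -0.13.

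Of the results for single members under the alternatives, 810 kept direction and call, 46 lost a call, 33 gained one and 48 turned in sign; the cause was not tested. With library totals, which shift all genes upward, differences became 0.22 (Kif11), 0.24 (Kif13a), 0.022 (Kif23), 0.0075 (Kif3a), 0.26 (Kifc1), 0.24 (Kifc5c-ps), 0.092 (Klc2) and 0.28 (Klc4). Upper quartile factors gave 0.016 (Kifc1), 0.0089 (Kifc5c-ps) and 0.031 (Klc4), and the filter of 200 gave 0.00085 (Klc4). With less 18S they were 0.038 (Kif11), 0.29 (Kif13a), 0.18 (Kif13b), -1.28 (Kif16bos), -0.048 (Kifc2) and 0.063 (Klc4). With more 18S they were -0.13 (Kif1a), -0.30 (Kif1c), 0.0054 (Kif22), -0.32 (Kif26a), 0.22 (Kif3a), -0.34 (Kif3c), -0.011 (Kif5b), 0.22 (Kifc1), 0.074 (Kifc5c-ps), -0.041 (Klc1), 0.40 (Klc3) and 0.053 (Klc4). 18S as a covariate gave -0.048 (Kif16bos), 0.039 (Kifc1) and 0.054 (Klc4). Leaving out single libraries gave ranges of -0.018 to 0.25 (Kif3c), -0.42 to 0.15 (Kifc5c-ps), -0.22 to 0.077 (Kif13a), -0.14 to 0.055 (Kifc1), -0.12 to 0.046 (Klc4), -0.70 to 1.24 (Kif16bos) and -0.0049 to 0.34 (Kifc5b). No called member was among these.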
